A study of Mus musculus with 2 samples.

Results

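The genes described here encode signals by which cells of the bone-forming lineage govern osteoclasts, the cells that resorb bone, together with the receptors of those signals. They are 10 genes: Tnfsf11, Tnfrsf11a, Tnfrsf11b, Csf1, Csf1r, Il34, Il6, Il11, Lif and Il6st, chosen by name for their function, with earlier results of these data known. Their members on the array were the probe sets whose only gene symbol in the platform annotation is one of these names. This gave 22 probe sets for 10 of the 18193 genes with a probe set of their own. The signals were measured in 2 mouse osteosarcoma cell lines, on Affymetrix mouse arrays that hold several probe sets for many genes, each summarised by the MAS5 algorithm as a linear signal. Dunn is the parental line, labelled non-metastatic, and LM8 is its subline, labelled highly metastatic. Neither line was treated or, per the labels, genetically altered, and both grew in the same medium that held 10% serum from fetal cattle and 1% of a non-essential amino acid mix. Each line gave 1 array, hybridised with label made from 10 µg of total RNA, so no value below has a replicate, an SD over samples or a p-value, and precision is limited by having so few arrays.

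Osteoclasts arise from precursors of the macrophage lineage under a pair of indispensable signals. CSF1, acting through its receptor CSF1R, keeps the precursors alive and dividing, and IL-34 is a further ligand of that receptor. RANKL, encoded by Tnfsf11, binds RANK (Tnfrsf11a) on the precursor and drives its differentiation, while osteoprotegerin (Tnfrsf11b) is a secreted decoy that captures RANKL. IL-6, IL-11 and LIF act through receptors that share the signalling chain gp130 (Il6st), and in osteoblasts this route can raise RANKL. In bone, tumours are known to use these factors to raise resorption, and an osteosarcoma cell may send such signals, receive them or both.

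Of these signals, Csf1 alone was a ligand with clear transcript signals in both lines, and it was at nearly the same level in Dunn and LM8. The gp130 chain gene Il6st was lower in LM8 on each of its 4 probe sets. Csf1r was 2.80-fold lower in LM8 on its brightest probe set, with its other probe sets divided. The RANKL, RANK and osteoprotegerin genes, Il34, Il11 and Lif gave signals no higher than the median of either array, and Il6 passed it slightly in Dunn only. The median signal of each array over 45037 non-control probe sets, 21.1 in Dunn and 18.96 in LM8, served as a floor below which signals were not ordered, and a probe set was called measured if it exceeded the floor on at least 1 array.

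Measured probe sets numbered 12 of 22, and they belonged to 4 of the 10 genes. Over the whole array, 65% of genes were measured. Among the 4 measured genes, taken at their brightest measured probe set, 1 was at least 2-fold lower in LM8, 0 were at least 2-fold higher and 3 stayed within 2-fold. Of all 11830 measured genes, 8.84% were at least 2-fold lower and 6.51% at least 2-fold higher. The median log2 ratio of LM8 over Dunn was -0.58 over the 4 measured genes and -0.08 over all measured genes. Among the 4, Il6 exceeded the floor in Dunn only, so its ratio of -0.35 is a bound whose sign the filter fixed. Counted by probe set, 3 of the 12 were at least 2-fold lower in LM8 and 0 at least 2-fold higher, against 7.79% and 5.91% of all measured probe sets. With 4 genes these shares rest on very few values, and the probe sets of a gene share its RNA and are not replicates.

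**Figure D1:**
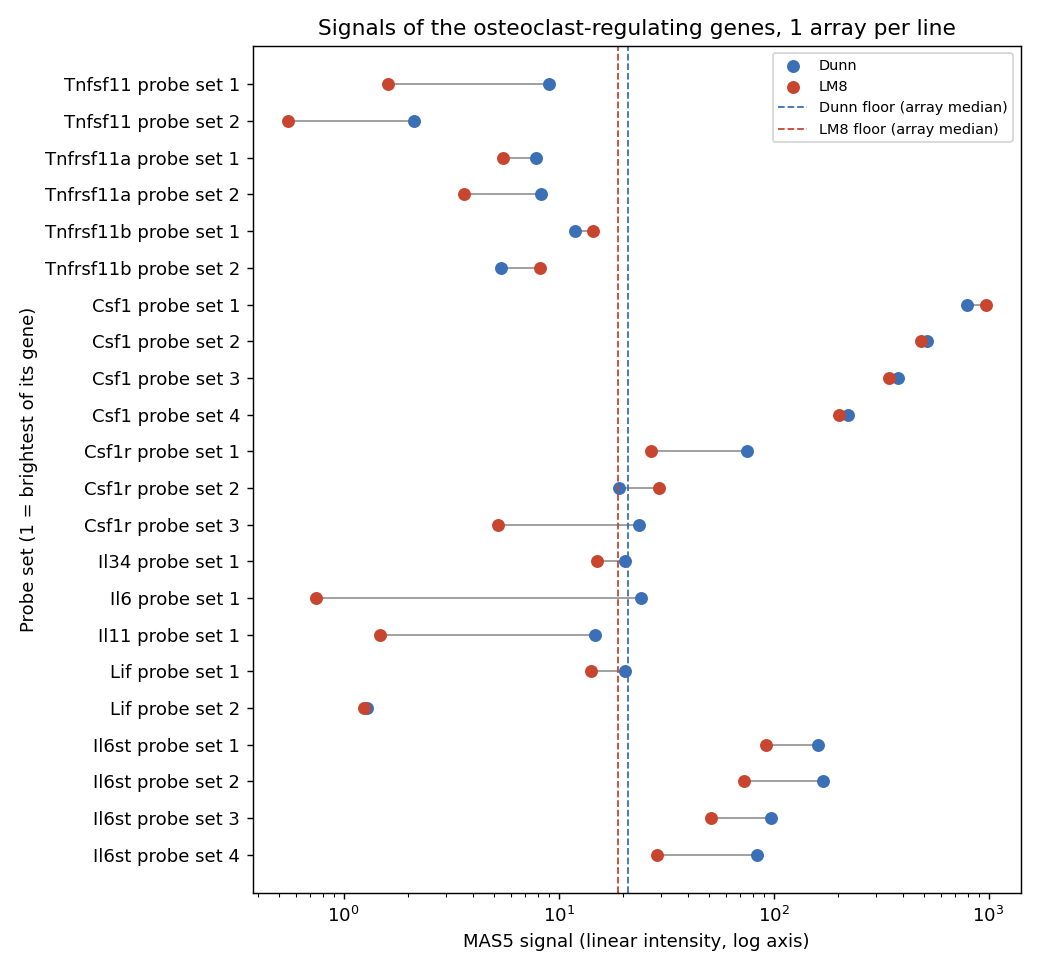
The horizontal log axis is the MAS5 signal and each line of the vertical axis is 1 of the 22 probe sets, ordered by gene and then by brightness, with a blue point for Dunn, a red point for LM8 and dashed lines at the floors of 21.1 and 18.96. The 4 Csf1 probe sets lie far to the right with nearly coinciding points, the 4 Il6st probe sets have LM8 to the left of Dunn, and all probe sets of Tnfsf11, Tnfrsf11a, Tnfrsf11b, Il34, Il11 and Lif lie left of the floor of their own line.

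The promoter sequences of the 3 gp130 cytokines among the members and of their shared receptor chain are given here. They were chosen because these cytokine genes lay near or under the floor and the receptor gene was lower in LM8 on each of its 4 probe sets. Each is the 250 bases before a RefSeq transcription start in mouse build GRCm38.p6, written 5′ to 3′ on the strand of the gene. The intervals are chr5:30012864-30013113 (plus strand) for Il6, chr7:4778142-4778391 (minus strand) for Il11, chr11:4257318-4257567 (plus strand) for Lif and chr13:112463820-112464069 (plus strand) for Il6st. Capitals mark matches to 4 motifs searched on both strands: TGANTCA, the site of AP-1 factors; TTNNGNAA, that of C/EBP factors; TGACGTCA, the cyclic AMP response element; and TTCNNNGAA, that of STAT factors.
Il6: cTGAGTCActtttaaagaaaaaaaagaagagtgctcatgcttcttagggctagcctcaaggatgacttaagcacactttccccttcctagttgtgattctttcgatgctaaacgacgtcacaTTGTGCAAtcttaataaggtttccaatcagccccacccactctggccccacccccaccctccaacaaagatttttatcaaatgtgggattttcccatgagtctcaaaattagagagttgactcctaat
Il11: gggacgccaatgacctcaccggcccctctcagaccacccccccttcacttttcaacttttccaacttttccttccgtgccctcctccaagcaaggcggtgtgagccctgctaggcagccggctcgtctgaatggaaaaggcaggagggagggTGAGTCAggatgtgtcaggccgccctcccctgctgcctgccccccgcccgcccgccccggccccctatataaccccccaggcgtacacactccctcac
Lif: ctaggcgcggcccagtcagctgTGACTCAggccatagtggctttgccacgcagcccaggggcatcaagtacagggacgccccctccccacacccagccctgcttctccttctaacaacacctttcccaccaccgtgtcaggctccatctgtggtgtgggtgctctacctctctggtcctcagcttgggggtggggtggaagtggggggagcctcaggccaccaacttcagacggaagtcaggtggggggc
Il6st: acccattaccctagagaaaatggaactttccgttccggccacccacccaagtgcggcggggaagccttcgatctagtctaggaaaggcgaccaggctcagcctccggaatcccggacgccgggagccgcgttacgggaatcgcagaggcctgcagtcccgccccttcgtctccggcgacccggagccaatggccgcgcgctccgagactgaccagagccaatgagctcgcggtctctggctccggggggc
The AP-1 letters were found in each of the 3 cytokine promoters, starting 249 bases before the start of Il6, 98 before that of Il11 and 228 before that of Lif. They were not found in the windows of Il6st, Csf1, Tnfsf11 or Tnfrsf11a, nor at a further Il11 start in the table, so that 3 of 8 starts of the 7 members in the table held them, against 6.75% of all 32851 starts. The C/EBP letters occurred once, 128 bases before the Il6 start, where they stood as TTGTGCAA, and 36.8% of all starts held them. The cyclic AMP and STAT letters were in none of the 8 windows, against 1.55% and 7.02% of all starts. No match overlapped another. A match describes the sequence and was not tested as a site of binding in these lines.

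The genes of the RANKL axis gave no signal above the floor. Tnfsf11, the gene of RANKL itself, gave 9.06 in Dunn and 1.61 in LM8 on probe set 1451944_a_at, and 2.13 and 0.550 on probe set 1419083_at. Both lay under the floor in both lines, so no fold is given. To show what such signals mean on these arrays, 83 probe sets of olfactory, vomeronasal and taste receptor genes, which most tissues do not express, were taken as a background. In Dunn, 34.9% of them had a signal as high as the brighter Tnfsf11 probe set, and in LM8 73.5%.

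Tnfrsf11a, which encodes the RANK receptor carried by osteoclast precursors, gave 8.29 in Dunn and 3.64 in LM8 on probe set 1419214_at and 7.82 and 5.54 on probe set 1430259_at. Tnfrsf11b, the gene of the decoy osteoprotegerin, had 11.9 in Dunn and 14.5 in LM8 on probe set 1418309_at and 5.37 and 8.18 on probe set 1449033_at. Of the background probe sets, 30.1% in Dunn and 12.0% in LM8 were as bright as the brighter Tnfrsf11b probe set. The ligand, its receptor and its decoy were therefore not detectable above the floor in either line, and a ratio of RANKL to osteoprotegerin could not be formed.

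Csf1 encodes the growth factor that osteoclast precursors need, and its 4 probe sets were bright in both lines. Probe set 1460220_a_at had a signal of 796 in Dunn and 969 in LM8. Probe set 1448914_a_at had 518 and 484, probe set 1425154_a_at had 380 and 344, and probe set 1425155_x_at had 222 and 201. LM8 was thus slightly higher on the brightest probe set and slightly lower on the other three. The log2 ratios ran from -0.15 to 0.28, with a mean of -0.03 and an SD between probe sets of 0.21. That mean is smaller than the SD between probe sets, and its direction changed with the scaling: all 4 were above 0 with the arrays centred on their medians. No background probe set on either array was as bright as any of the 4.

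Csf1r encodes the receptor tyrosine kinase for CSF1 and IL-34 and is normally a gene of macrophages and osteoclasts. Its brightest probe set, 1423593_a_at, had a signal of 75.1 in Dunn and 26.8 in LM8, 2.80-fold lower in LM8 with a log2 ratio of -1.49. Probe set 1419873_s_at had 23.6 in Dunn, just above the floor, and 5.25 in LM8, under it, which gave at least a 1.24-fold lower signal. Probe set 1419872_at went the other way, with 19.2 in Dunn, under the floor, and 29.3 in LM8, at least 1.39-fold higher. The 2-fold difference therefore rests on the 1 probe set above both floors. An average over the 3 depends on the floor, since the other two are bounds: the mean log2 ratio was -0.44 with the floor and -1.01 without it.

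Macrophage markers were set beside Csf1r, because a bulk sample cannot tell fewer cells of a type from less RNA per cell. Of 15 listed markers, 8 were measured, 1 was at least 2-fold lower in LM8, 0 were higher and 7 stayed within 2-fold. For this list and each list below, the shares over all measured genes were 8.84% at least 2-fold lower and 6.51% at least 2-fold higher. All 8 measured markers had log2 ratios below 0, with a median of -0.47, and all 8 stayed below 0 with array medians. They also did when scaled on the 12 hybridisation controls (control RNAs added to each array) that lay above both floors. When scaled on all 18 controls, 2 of 8 were below 0. Adgre1, Cd68, Fcgr1, Tyrobp and Lyz2 exceeded the floor in Dunn only, so as reported and with array medians the filter fixed their sign. Cd14, Laptm5 and Spi1, above both floors, had log2 ratios of -0.96, -0.40 and -0.25. The one past 2-fold was the lysozyme gene Lyz2, with 44.8 in Dunn and 1.90 in LM8, at least 2.36-fold lower, and with the 12 controls as the scale 0 markers reached 2-fold. Summed over the 15 markers at their brightest probe sets, the signal was 337 in Dunn and 187 in LM8. These sums were taken without the floor and include signals under it, which were not ordered, so they give no fold. No marker exceeded 64.0 in Dunn or 32.9 in LM8. The genes Itgam, Ptprc, Aif1, Mpeg1, Cx3cr1, Cd163 and Mrc1 lay under the floor in both lines. Of the 83 background probe sets, 9.64% exceeded the floor in Dunn and 2.41% in LM8, the brightest at 43.4 and 39.3. Only Cd14 and Lyz2 were brighter than 43.4 in Dunn, and no marker was brighter than 39.3 in LM8. The other measured markers thus lay within the background range in both lines. The part of macrophage RNA in the Csf1r difference was not tested.

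Osteoclast and osteoblast markers were read in the same way. Of 13 osteoclast markers with a probe set, 4 were measured and 9, among them the genes of tartrate-resistant acid phosphatase (Acp5), the calcitonin receptor (Calcr) and the fusion protein DC-STAMP (Dcstamp), were under the floor in both lines. The protease gene Ctsk, with 56.3 in Dunn and 254 in LM8, was the marker at least 2-fold higher. The other 3 stayed within 2-fold and below 0, with log2 ratios of -0.96 (Clcn7), -0.72 (Ostm1) and -0.43 (Tcirg1). The median log2 ratio of the 4 was -0.57, and whether their signals came from osteoclasts was not tested. All 7 osteoblast lineage markers with a probe set were above the floor in both lines, and 2 were at least 2-fold lower in LM8, 1 was higher and 4 stayed within 2-fold. The bone sialoprotein gene Ibsp, with 239 in Dunn and 96.6 in LM8, and the parathyroid hormone receptor gene Pth1r were the lower ones. The osteomodulin gene Omd, with 164 and 823, was the higher one, and alkaline phosphatase (Alpl) had 1266 and 1739. Of 7 lymphocyte markers, 1 was measured, Cd8a, with signals of 24.2 and 22.3.

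Il34, the gene of the other CSF1R ligand, has 1 probe set, which read 20.5 in Dunn and 15.2 in LM8, both under the floors. The partners through which CSF1R and IL-34 act were mostly within 2-fold. Of 8 listed partner receptors and signal transducers 6 were measured, and their median log2 ratio was -0.14, which turned to 0.01 with array medians. At least 2-fold lower in LM8 was 1, 0 were higher, and the other 5 fell short of 2-fold. Gab2, the gene of a docking protein that joins CSF1R to PI3 kinase, was the lower one. Its brightest probe set had 108 in Dunn and 24.8 in LM8, 4.37-fold lower, and its other two, at the floor in LM8, were at least 1.82-fold and at least 1.23-fold lower. Its log2 ratio of -2.13 became -0.86 with gene-unique probe sets only and -0.24 with the floor at the 75th percentile, which ends the call. Ptprz1, an alternative IL-34 receptor gene, and the kinase gene Syk were under the floor in both lines.

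The 3 gp130 cytokine genes among the members were near or under the floor. Il6, the gene of interleukin 6, had a signal of 24.2 in Dunn and 0.745 in LM8 on its 1 probe set. Against the LM8 floor this is at least 1.28-fold lower, with a pseudocount at the array median in place of the floor the log2 ratio was -1.20, and 7.23% of the background probe sets in Dunn were as bright. Il11, whose product also promotes osteoclast formation through gp130, had 14.7 in Dunn and 1.48 in LM8, both under the floor. Lif, the leukaemia inhibitory factor gene, had 20.4 and 14.1 on probe set 1421207_at and 1.29 and 1.24 on probe set 1450160_at, all under the floors. Without the floor the Il6 signals differed by -5.02 and the Il11 signals by -3.31 in log2 ratio, values that rest on LM8 signals which 86.7% and 75.9% of the background probe sets matched or exceeded.

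Il6st, the gene of gp130, was above the floor in both lines on all 4 probe sets and lower in LM8 on each. Probe set 1452843_at had a signal of 161 in Dunn and 92.5 in LM8, a log2 ratio of -0.80. Probe set 1437303_at had 170 and 72.6, a log2 ratio of -1.23. Probe set 1460295_s_at had 97.7 and 51.1, a log2 ratio of -0.94. Probe set 1421239_at, the dimmest, had 83.6 and 28.7, a log2 ratio of -1.54. Every Dunn signal was thus above its LM8 signal, and 2 of the 4 passed 2-fold. The mean log2 ratio was -1.13 with an SD between probe sets of 0.33, or 2.19-fold lower in LM8. The brightest probe set, which stood for the gene in the counts above, had the smallest difference, 1.74-fold, so that Il6st counted as within 2-fold. Of 988 genes that had 4 or more measured probe sets, 18.8% were lower in LM8 on every one.

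**Figure D2:**
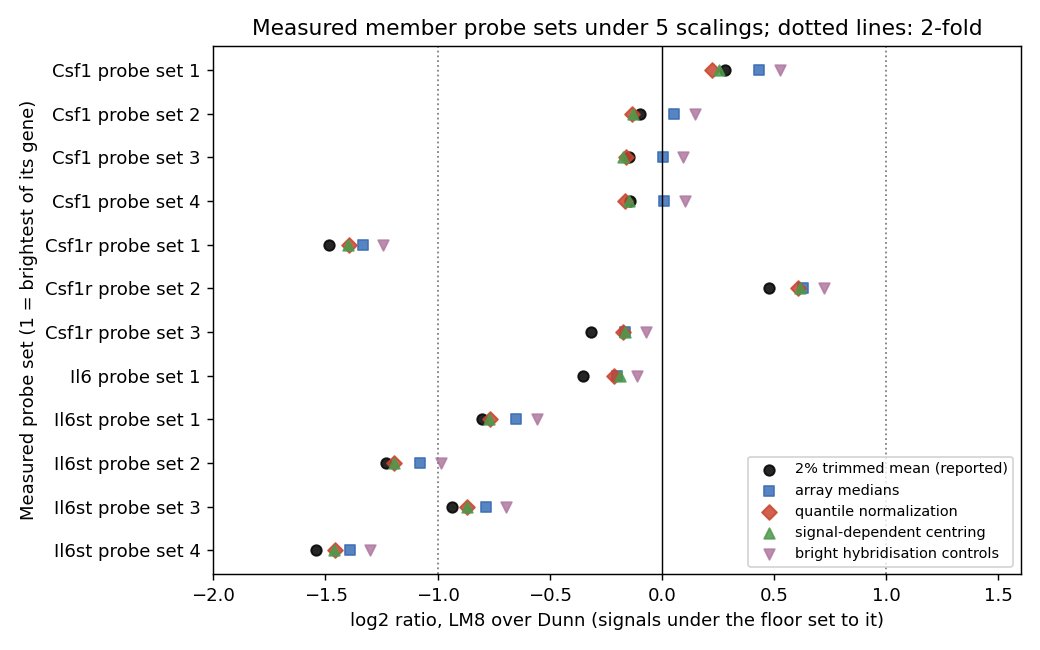
The horizontal axis is the log2 ratio of LM8 over Dunn and each line is 1 of the 12 measured probe sets, with a symbol for each of 5 scalings of the arrays (common trimmed mean as reported, array medians, quantiles, signal-dependent centring, and hybridisation controls above both floors), a solid line at no difference and dotted lines at 2-fold. The Il6st probe sets lie left of 0 under all 5, between -1.54 and -0.80 as reported, the Csf1 probe sets lie close to 0, and the 3 Csf1r probe sets lie on both sides of 0.

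Other receptors of the gp130 family differed in direction. Of 8 further ligand and receptor genes with a probe set, 7 were measured, of which 1 was at least 2-fold higher in LM8 and 1 lower, and the median log2 ratio was -0.20. Osmr, the gene of the oncostatin M receptor chain that pairs with gp130, was the lower one, with 444 in Dunn and 156 in LM8 on its brightest probe set, 2.85-fold lower, and 103 and 67.3 on the next. Lifr, the LIF receptor chain gene, had 1446 and 1256 on its brightest probe set, a log2 ratio of -0.20, and ratios of 0.53 and 0.68 on its other probe sets. Il6ra, which confers the response to IL-6, had 34.2 in Dunn and 13.4 in LM8, at least 1.80-fold lower at signals near the floor. The higher one was the cardiotrophin 1 gene Ctf1, a gp130 ligand, with 5.01 in Dunn and 87.6 in LM8, which puts its 1 probe set at least 4.16-fold higher.

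Signal transducers and feedback genes downstream of gp130 had a median log2 ratio of 0.08. Of 12 measured, 1 was at least 2-fold lower in LM8, 0 were higher and 11 stayed within 2-fold. The kinase gene Pim1, a known target of STAT3, was the lower one, with 307 in Dunn and 152 in LM8 on its brightest probe set, a log2 ratio of -1.01, and 67.7 and 32.5 on the other, a log2 ratio of -1.06. The brighter one was -0.86 with arrays centred on their medians, which ends the call. Stat3, the main transcription factor of the route, had 172 in Dunn and 95.0 in LM8, a log2 ratio of -0.86. Its next probe set had 91.1 and 50.4, and on the others, both under the floor in LM8, it was at least 2.78-fold and at least 1.66-fold lower. The feedback inhibitor gene Socs3 had 222 and 266, a log2 ratio of 0.27, and its other probe sets had 0.45 and 0.26. Stat3 and Socs3, both within 2-fold, thus lay on opposite sides of 0. Their mRNA levels do not measure the activity of the route.

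Genes that carry the RANK signal inside osteoclast precursors, many of them shared with other NF-κB routes, were mostly within 2-fold. The median log2 ratio of the 10 measured was -0.21. A 2-fold lower signal in LM8 was reached by 1, a 2-fold higher one by 0, and 9 stayed within 2-fold. The lower one was the AP-1 subunit gene Fos, with 67.5 in Dunn and 31.3 in LM8, a log2 ratio of -1.11 that became -0.96 with array medians.

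Among hormones, cytokines and receptors that induce RANKL in osteoblasts, 8 of 13 with a probe set were measured, with a median of -0.22. At least 2-fold lower in LM8 were 3, and 1 was at least 2-fold higher. Pth1r, the parathyroid hormone receptor gene, had 1115 in Dunn and 492 in LM8, 2.26-fold lower, a log2 ratio that became -0.94 when scaled on the 12 controls. Vdr, the vitamin D receptor gene, had 171 and 81.1 on its brightest probe set, 2.11-fold lower, and 110 and 42.1 on the other, while with array medians the brightest had a log2 ratio of -0.93. Ptgs2, the inducible cyclooxygenase gene that starts prostaglandin synthesis, had 46.8 in Dunn and 2.02 in LM8, at least 2.47-fold lower, and 43.6 and 5.16 on its other probe set. Ptges, the gene of the synthase that finishes prostaglandin E2, was 2.12-fold higher, with 31.6 and 67.1. Its next probe set had 3.22 and 21.97, at least 1.04-fold higher. The Ptges log2 ratio of 1.09 became 0.57 with probe sets averaged and 0.71 with the pseudocount, which ends the call. The inflammatory cytokine genes Tnf and Il1a were under the floor in both lines.

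Of 19 other signals from osteoblasts to osteoclasts, 12 were measured, with a median of -0.20. At least 2-fold lower in LM8 were 2, at least 2-fold higher was 1, and 9 stayed within 2-fold. The semaphorin gene Sema3a, whose product restrains osteoclast formation, had 59.0 in Dunn and 17.2 in LM8, at least 3.11-fold lower, and 43.0 and 22.8 on its next probe set. Sema3b had 129 and 48.8, 2.64-fold lower, and 71.0 and 4.41 on its next probe set, at least 3.75-fold lower. Its log2 ratio of -1.40 became -0.49 with the floor at the 75th percentile, which ends the call. The matricellular gene Postn was the higher one, with 8.70 in Dunn and 86.0 in LM8 on its 1 probe set, at least 4.08-fold apart. The chemokine genes Ccl2, Ccl7 and Cxcl12 were under the floor in both lines.

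**Figure D3:**
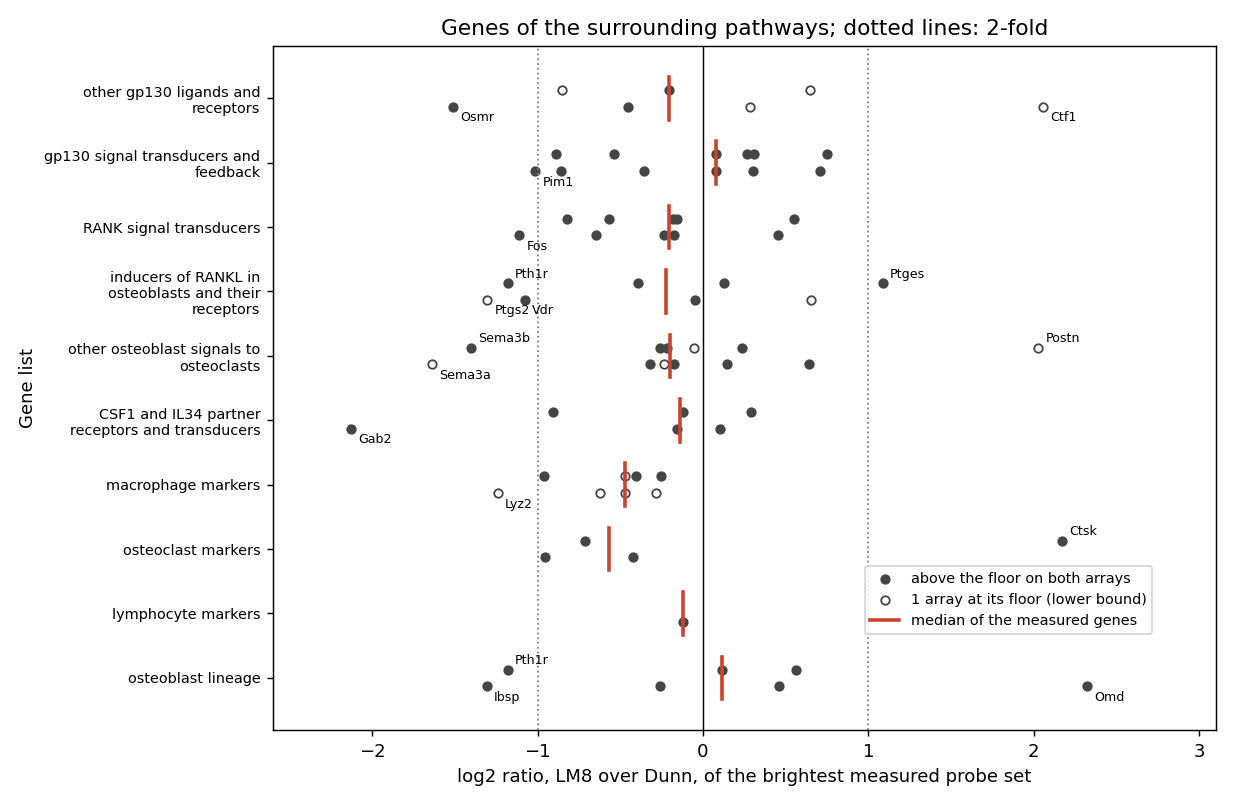
The horizontal axis is the log2 ratio of LM8 over Dunn for the brightest measured probe set of each gene, 1 point per gene, and each line is a gene list, with open points for lower bounds, red bars for medians and names for genes past 2-fold. Most points lie within the dotted 2-fold lines, and the medians lie between -0.57 for the 4 measured osteoclast markers and 0.11 for osteoblast lineage genes.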

How the data were processed

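Transcript signals of 1 Dunn and 1 LM8 array (Affymetrix Mouse430_2, 45101 probe sets) were used. The authors deposited MAS5 signal intensities on a linear scale; the submitters' processing notes name the tool, and its settings are not given in the sources used here. Detection calls were not used, so a floor stood in for them. Leaving out 64 control probe sets, both arrays were put on a common 2% trimmed mean (factors of 1.00). The floor was each array's median, signals under it were set to it, and a fold with an array at the floor is a lower bound. Symbols came from the platform annotation, updated through gene identifiers (99.4% matched) against GRCm38.p6. Of the 45037 non-control probe sets, 34945 had 1 symbol and 932 several, and 9160 were unnamed. A gene was represented by the brightest of its measured probe sets (mean of both log2 signals). With 1 array per line no test was possible, and differences were counted at 2-fold. All 10 members are named, and of the other lists those past 2-fold, up to 6 a list; other list genes were chosen after their values were seen. Members and lists were chosen with earlier results of these data known. The steps were tested on simulated arrays with differences placed only in genes far above the floor, so differences near the floor were not covered. Alternatives were 5 scalings, 3 treatments of dim signals, 2 gene summaries and 2 call rules. Python 3.11.15, numpy 2.4.6, pandas 2.3.3, statsmodels 0.14.6 and matplotlib 3.10.9 were used.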

Additional observations from a re-analysis of the deposited data

How the results depend on the processing

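No paired analysis was possible because each line has 1 array and no result comes from a test. The count of members at least 2-fold lower in LM8, 1 as reported, fell to 0 under a floor at the 75th percentile (2 members measured). It also fell to 0 with only probe sets whose names end in a plain _at and with a 3-fold rule. The same count of 0 came with all probe sets of a gene required to be 2-fold apart, and with scaling on all 18 hybridisation controls. It was 2 (Csf1r and Il6) with unfiltered probe sets and a pseudocount and 4 with neither floor nor filter (Tnfsf11, Csf1r, Il6 and Il11). With probe sets averaged it was still 1, but the gene was Il6st (-1.13); the Csf1r average of -0.44 holds 2 bounds at the floor and was -1.01 with no floor, an average added after seeing the data. Csf1r turned to 0.48 with only probe sets whose names end in a plain _at. That rule drops its brightest probe set and keeps only 1419872_at, which was under the floor in Dunn. Csf1 was 0.28 as reported and -0.03 with probe sets averaged. Scaling on all 18 hybridisation controls, of which 6 lay under both floors, moved the median of all genes from -0.08 to 0.65, gave a count of 1 member at least 2-fold higher (Csf1, 1.02) and a member median of 0.16. With the 12 controls above both floors, an alternative chosen after seeing the data, the median of all genes was 0.16, 0 members were 2-fold higher and 1, Csf1r, was 2-fold lower. With these 12 controls, 2-fold higher calls made up 10.5% of all genes and lower calls 5.4%, and with array medians 8.66% and 6.55%. Il6st was below 0 under all 10 alternatives that gave it a value, from -1.13 to -0.06. The medians of the gp130 receptor, RANK, RANKL inducer and osteoblast signal lists turned to between 0.02 and 0.05 with the 12 controls, and that of the CSF1 and IL34 partner list to 0.11, so these lists have no settled direction. Signal over background limits what can be said of the 6 members under the floor.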
